A study of Mus musculus with 8 samples.

Results

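The Wnt pathway set comprised 45 genes of the 18193 that the platform annotation names on the array. They were taken by symbol: every Wnt, Fzd, Sfrp or Dkk gene with a number, plus Lrp5, Lrp6, Axin1, Axin2, Ctnnb1, Tcf7l2, Lef1 and Wif1, a rule that uses no measured value; Tcf7, which the rule also names, was not analysed here. The set held 19 Wnt ligands, 12 receptor genes, 9 secreted antagonists and 5 intracellular members. Each gene was read from its brightest probe set, the one with the greatest average over the 8 arrays. Expression was measured in mouse tumours of 2 lines, LLC (Lewis lung carcinoma) and colon26 (a colon carcinoma), both carrying EGFP driven by a cloned promoter of mouse PSF1, the replication protein encoded by Gins1. Cells were inoculated subcutaneously and the tumours taken 4 weeks later for LLC and 2 weeks later for colon26, then dissociated and sorted by FACS for low or high PSF1 promoter activity, here EGFP-low and EGFP-high. The 4 groups were thus LLC low, LLC high, colon26 low and colon26 high, each with 2 arrays numbered 1 and 2 and labelled as biological replicates. The labels give neither the host strain, nor whether a line was 1 clone, nor whether host cells were removed, and do not tie the numbers to animals. The p-values therefore cover only the spread among these arrays, which may be partly technical.

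Wnt ligands are lipid-modified secreted proteins that bind Frizzled (Fzd) receptors together with the co-receptors Lrp5 and Lrp6. In the canonical branch this stops the Axin scaffold from marking beta-catenin (Ctnnb1) for destruction, and beta-catenin then acts in the nucleus with the DNA-binding factors Lef1, Tcf7 and Tcf7l2. Sfrp proteins and Wif1 bind the ligands, whereas most Dkk proteins bind Lrp5 and Lrp6. The canonical branch maintains stem cells of the intestinal crypt and is often activated in colon carcinoma.

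Values are log2 signals of the deposited RMA summaries, in which levels of different genes cannot be ranked. The array medians lay between 4.76 and 5.02, lower on the LLC arrays (4.76 to 4.86) than on the colon26 arrays (4.87 to 5.02), and a value near or under 5 is treated as close to background. The arrays numbered 1 differed in RNA representation from those numbered 2: for 4 control transcripts the 3′ probe sets exceeded the 5′ ones by a median log2 difference of 2.41 to 2.70 against −0.01 to 0.35. Low and high arrays of 1 number were therefore compared as pairs. Gins1 rose by 1.28 in LLC and 1.07 in colon26 high cells (limma adjusted p = 0.0033 and 0.017). The marker genes listed for the lines went both ways. Of 6 epithelial and colon markers tested 3 passed as higher in LLC and 1 as higher in colon26 (limma). Krt8, Krt18 and Epcam were higher on all LLC arrays and Krt20 on all colon26 arrays. Of 4 lung markers tested 1 passed as higher in LLC and 2 as higher in colon26. Among all genes 20.4% passed as higher in LLC and 26.7% as higher in colon26. Abca3 was higher on all LLC arrays, and Foxa2 and Napsa on all colon26 arrays. In contrast, 6 of 12 epithelial and colon markers (Cdh1, Krt19, Vil1, Cdx1, Lgals4 and Cldn7) and 4 of 8 lung markers (Sftpc, Sftpa1, Nkx2-1 and Scgb1a1) never exceeded 5.

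Most of the receptor and intracellular genes, but fewer of the ligand genes, gave signal above background on at least 2 arrays. A filter of log2 5 on at least 2 arrays was passed by 31 of the 45 members. The share of all genes was similar, 12177 of 18193. By role 9 of 19 ligands, 11 of 12 receptors, 6 of 9 antagonists and 5 of 5 intracellular members passed. Of the receptors, Fzd2, Fzd3, Fzd4, Fzd6 and Fzd8 exceeded 5 on 0 LLC arrays. The 10 ligands that did not pass were Wnt1, Wnt2b, Wnt3, Wnt5b, Wnt8a, Wnt8b, Wnt9a, Wnt9b, Wnt11 and Wnt16. The other members that did not pass were Fzd9, Dkk1, Dkk4 and Wif1. Of these 14, 10 stayed under 5 on every array, and Wnt5b, Wnt9a, Wnt9b and Wnt11 exceeded it on 1 array, with highest values of 5.24, 5.14, 5.35 and 5.12. Dkk1, the founding antagonist of Lrp6 signalling and a target of the pathway, lay between 3.51 and 4.10 on the 8 arrays. Wif1 lay between 2.83 and 3.48. Above 5 on all 8 arrays were 17 members: Wnt5a, Wnt6, Wnt7a, Wnt7b and Wnt10a, then Fzd5, Fzd7, Fzd10 and Lrp6, then Dkk2, Sfrp1, Sfrp4 and Sfrp5, and Axin1, Axin2, Ctnnb1 and Tcf7l2.

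**Figure D1:**
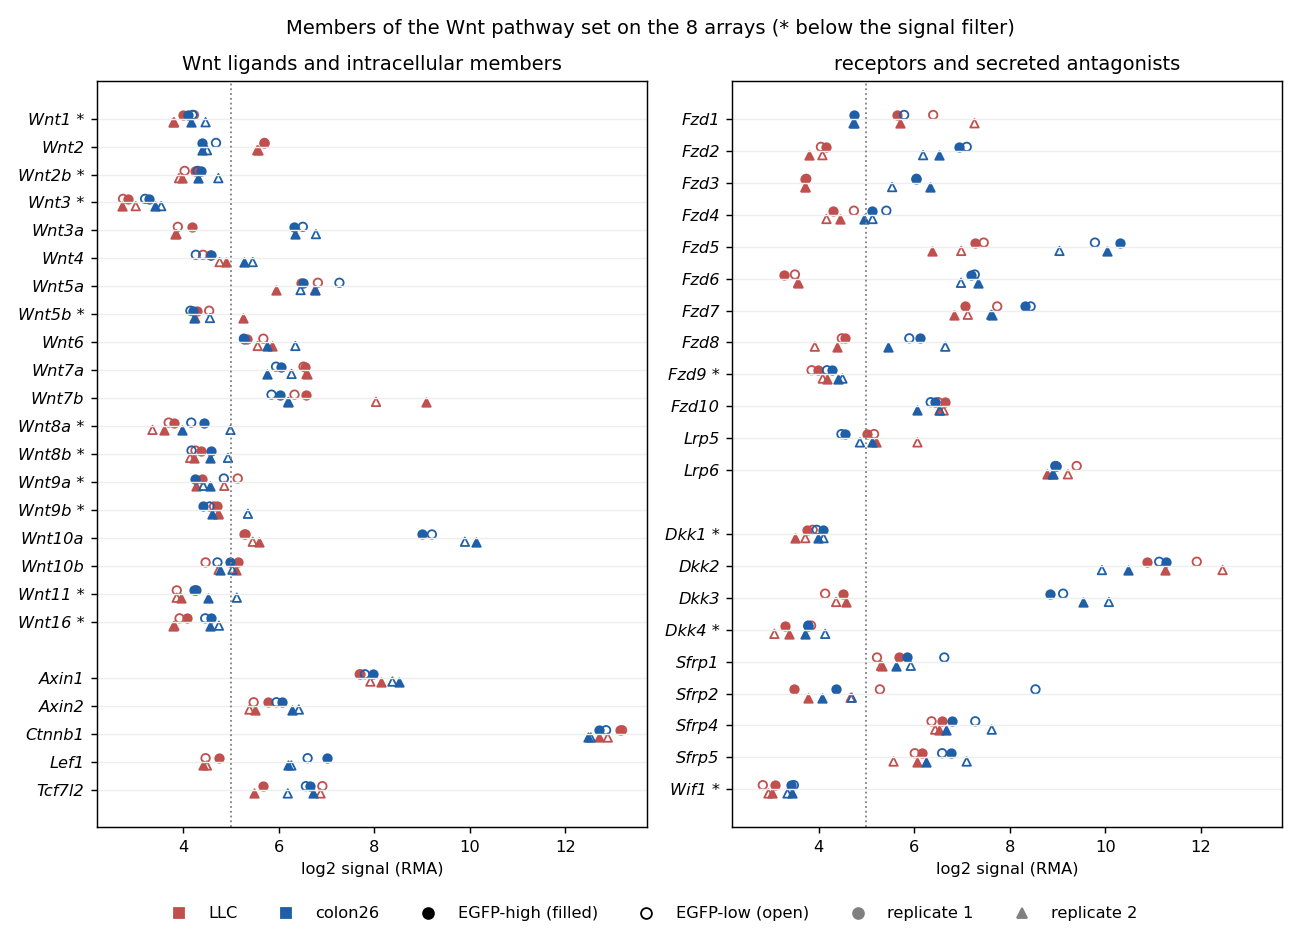
Log2 signal (x axis) of the 45 members on each of the 8 arrays, by line (colour), sort (filled high, open low) and replicate number (circle 1, triangle 2); the dotted line marks log2 5 and an asterisk the 14 members below the filter. Dkk3, Wnt10a, Fzd6 and Wnt3a split by line with no overlap, whereas high and low cells of a line lie close together for most members.

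The comparison of the lines asked which ligands, receptors and antagonists each tumour carried. Colon26 tumour cells had higher Dkk3, Wnt10a and Wnt3a, higher Fzd2, Fzd3, Fzd5, Fzd6 and Fzd8, and higher Lef1. LLC cells had higher Wnt2, Wnt7b, Wnt7a, Fzd1 and Lrp5, though Lrp5 lay near background on most arrays. High and low arrays of a number were averaged first, which left 2 pair means a line, and the replicate number was a block. In all 20 of 31 members passed (adjusted p under 0.05): 5 higher in LLC and 15 higher in colon26. Among all 12177 genes tested, 47.0% passed, 20.4% higher and 26.7% lower in LLC, so calls between the lines were common in general. The 4 arrays of LLC did not overlap the 4 of colon26 in 16 of 31 members, against 33.2% of all genes: LLC lay above in 3 (13.3% of all genes) and below in 13 (19.9%). These counts cannot be read as a feature of the set, since 9 members passed the filter through colon26 arrays alone and 1 through LLC arrays alone. The 9 were Dkk3, Wnt3a, Wnt4, Lef1, Fzd2, Fzd3, Fzd4, Fzd6 and Fzd8, and the 1 was Wnt2. This favoured a difference in these 10 before any test, though 1 of them, Wnt4, was not called. Their p-values between the lines are given as a description. Line, weeks of growth and the host cells in the sort cannot be told apart in this design. Of the host markers tested, 7 of 13 fibroblast and 7 of 12 macrophage genes were higher in colon26, and 3 and 0 were higher in LLC (limma).

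Among the ligands, Wnt10a, which acts in skin, hair and tooth development, gave 5.31 and 5.46 on the LLC low arrays, 5.27 and 5.59 on the LLC high, 9.20 and 9.90 on the colon26 low and 9.0 and 10.13 on the colon26 high arrays. All colon26 arrays lay above all LLC arrays, and LLC minus colon26 was −4.15 (SE 0.21, limma adjusted p = 1.9e-04). The LLC values of Wnt10a were near background, so no fold is given, and the gene was read by only 1 probe set. Wnt3a, a classical activator of the canonical branch, read 3.89 and 3.86 on the LLC low arrays, 4.19 and 3.82 on the LLC high, 6.50 and 6.78 on the colon26 low and 6.33 and 6.33 on the colon26 high arrays. Its LLC values were at background and its colon26 values all above 6, a difference of −2.55 (SE 0.16, limma adjusted p = 4.2e-04). Wnt3a passed the filter through colon26 arrays alone, which favoured this direction. Wnt2, a ligand of early lung development, went the other way, with 5.70 and 5.55 on the LLC low arrays, 5.69 and 5.56 on the LLC high, 4.69 and 4.50 on the colon26 low and 4.40 and 4.40 on the colon26 high arrays. The difference for Wnt2 was 1.13 (SE 0.14, limma adjusted p = 0.0036), and the colon26 values were at background. Wnt2 passed the filter through LLC arrays alone, which favoured a higher value in LLC. For Wnt7b, a ligand of lung and kidney epithelium, the arrays gave 6.33 and 8.04 on the LLC low arrays, 6.56 and 9.07 on the LLC high, 5.85 and 6.20 on the colon26 low and 6.02 and 6.19 on the colon26 high arrays. Only the LLC arrays numbered 2 stood far above colon26: LLC minus colon26 was 0.48 and 0.54 among the arrays numbered 1 and 1.84 and 2.89 among those numbered 2. The mean difference was 1.44 (SE 0.43, limma adjusted p = 0.044), and its second probe set gave 1.26. The part of the 3′ to 5′ difference between the numbers in this was not tested. Wnt7a differed by 0.56 (SE 0.14, limma adjusted p = 0.028), but its 2 other probe sets, with means of 4.29 and 3.54, pointed the other way (−0.57 and −0.36), as did the mean of the 3 probe sets (−0.13, adjusted p = 0.45). The difference for Wnt4, Wnt5a, Wnt6 and Wnt10b lay between −0.25 and −0.01 and did not pass (adjusted p from 0.20 to 0.97).

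Ligand genes that lie side by side in the genome gave differing values. Wnt10a lies next to Wnt6 and Wnt3a next to Wnt9a on the mouse chromosomes, with 0 protein-coding genes between them in RefSeq. Wnt6, beside the strongly differing Wnt10a, differed by −0.05 (SE 0.19, limma adjusted p = 0.85). Its arrays gave 5.68 and 5.56 on the LLC low arrays, 5.34 and 5.86 on the LLC high, 5.27 and 6.35 on the colon26 low and 5.28 and 5.74 on the colon26 high arrays, and the lines overlapped. Wnt9a, beside Wnt3a, was below the filter, with 5.14 and 4.86 on the LLC low arrays, 4.39 and 4.28 on the LLC high, 4.85 and 4.42 on the colon26 low and 4.25 and 4.55 on the colon26 high arrays. Of the pairs Wnt9b with Wnt3 and Wnt10b with Wnt1, also with 0 genes between them, Wnt10b was the member that passed the filter, and its line difference was −0.01 (SE 0.14, limma adjusted p = 0.97).

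Of the 11 receptor genes tested 7 were higher in colon26, 2 were higher in LLC and 2, Fzd10 and Lrp6, did not pass, beside 26.7% of all genes higher in colon26 and 20.4% in LLC. Of the 7, Fzd2, Fzd3, Fzd4, Fzd6 and Fzd8 passed the filter through colon26 arrays alone, so the choice favoured that direction. Fzd6, a receptor known for planar polarity and hair patterning, gave 3.50 and 3.57 on the LLC low arrays, 3.28 and 3.56 on the LLC high, 7.27 and 6.98 on the colon26 low and 7.18 and 7.34 on the colon26 high arrays. This was a background signal in LLC and a clear one in colon26, a difference of −3.71 (SE 0.15, limma adjusted p = 1.2e-04), with no fold given against background. Its 2 other probe sets gave −0.80 and −0.40. Fzd5, which transmits canonical signals and acts in the intestine and eye, gave 7.46 and 6.99 on the LLC low arrays, 7.28 and 6.38 on the LLC high, 9.78 and 9.04 on the colon26 low and 10.32 and 10.03 on the colon26 high arrays. On this probe set both lines were above background. The difference for Fzd5 was −2.77 (SE 0.15, limma adjusted p = 2.4e-04). Its second probe set gave −2.49, with LLC values from 3.99 to 4.45, at background. Fzd2 gave 4.05 and 4.08 on the LLC low arrays, 4.16 and 3.80 on the LLC high, 7.10 and 6.19 on the colon26 low and 6.93 and 6.52 on the colon26 high arrays, a difference of −2.66 (SE 0.18, limma adjusted p = 5.0e-04). Its 3 probe sets ranged from −2.93 to −2.04. Fzd3, which guides axons, read 3.74 and 3.73 on the LLC low arrays, 3.73 and 3.71 on the LLC high, 6.05 and 5.54 on the colon26 low and 6.03 and 6.34 on the colon26 high arrays, close to a single level on all 4 LLC arrays. That difference was −2.26 (SE 0.14, limma adjusted p = 4.2e-04), and all 6 of its probe sets were lower in LLC, from −2.26 to −0.25. Fzd8 differed by −1.69 (SE 0.17, limma adjusted p = 0.0017), with LLC values from 3.92 to 4.55 and colon26 values from 5.46 to 6.65.

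Smaller differences were those of Fzd7 and of Fzd4, the receptor of Norrin. Fzd7 differed by −0.81 (SE 0.16, limma adjusted p = 0.013) and Fzd4 by −0.75 (SE 0.14, limma adjusted p = 0.012). The second probe set of Fzd7 gave 0.08. Fzd4 values lay near background, from 4.2 to 4.7 in LLC and 5.0 to 5.4 in colon26, and its other probe sets gave −0.19 and −0.42. In LLC the higher receptors were Fzd1 and the co-receptor Lrp5. Fzd1 differed by 1.25 (SE 0.26, limma adjusted p = 0.016), from 6.40 and 7.26 in LLC low and 5.79 and 4.73 in colon26 low cells, and 5.64 and 5.71 in LLC high and 4.74 and 4.74 in colon26 high cells. With only the high arrays the Fzd1 difference was 0.93 (limma adjusted p = 0.081). Lrp5 differed by 0.61 (SE 0.14, limma adjusted p = 0.022), and between the high groups by 0.28 (limma adjusted p = 0.31). Its values ran from 5.02 to 6.07 in LLC and from 4.48 to 5.12 in colon26. Most were near background, and the lines overlapped. Lrp6, the other co-receptor, gave 9.40 and 9.22 on the LLC low arrays, 8.96 and 8.79 on the LLC high, 8.95 and 8.90 on the colon26 low and 8.97 and 8.90 on the colon26 high arrays, a difference of 0.16 (SE 0.15, limma adjusted p = 0.40); its second probe set gave −1.14, so the probe sets of Lrp6 disagreed.

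Of the secreted antagonists, Dkk3 showed the greatest difference among the 31 members tested. Dkk3, a divergent member of its family, gave 4.14 and 4.37 on the LLC low arrays, 4.51 and 4.57 on the LLC high, 9.12 and 10.08 on the colon26 low and 8.84 and 9.54 on the colon26 high arrays. LLC values were at background on all 4 arrays, and the difference was −5.0 (SE 0.21, limma adjusted p = 1.2e-04). Dkk3 passed the filter through colon26 arrays alone, which favoured this direction, so its p is given as a description. The other Dkk3 probe set gave −6.24. Sfrp1, Sfrp4 and Sfrp5, which bind Wnt ligands, were higher in colon26 by smaller amounts, at −0.62, −0.61 and −0.72 (limma adjusted p = 0.028, 0.022 and 0.017). Between the high groups they were −0.23, −0.17 and −0.40 and did not pass (limma adjusted p = 0.42, 0.48 and 0.26). Dkk2, above 9 on all 8 arrays, differed by 0.92 (SE 0.35, limma adjusted p = 0.083) and did not pass.

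Among the intracellular members the DNA-binding factor Lef1 gave 4.47 and 4.50 on the LLC low arrays, 4.75 and 4.41 on the LLC high, 6.60 and 6.26 on the colon26 low and 7.01 and 6.20 on the colon26 high arrays. Every colon26 array was above 6 and every LLC array under 5, a difference of −1.99 (SE 0.17, limma adjusted p = 0.001), with the LLC values at background. Lef1 passed the filter through colon26 arrays alone, which favoured this direction. The second probe set of Lef1 gave −1.12. Axin2, a scaffold of the destruction complex and a widely used readout of canonical signalling, gave 5.47 and 5.39 on the LLC low arrays, 5.77 and 5.51 on the LLC high, 5.95 and 6.42 on the colon26 low and 6.07 and 6.28 on the colon26 high arrays. All colon26 values were higher, with LLC minus colon26 at −0.65 (SE 0.18, limma adjusted p = 0.037). The arrays of Axin1, the constitutive scaffold, overlapped at −0.30 (SE 0.15, limma adjusted p = 0.15). Beta-catenin and Tcf7l2 did not pass either, at 0.34 (SE 0.14, limma adjusted p = 0.11) and −0.30 (SE 0.14, limma adjusted p = 0.14).

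The scaling of the arrays bore on the small differences between the lines. The median difference of all genes was −0.08 as deposited and 0.07 after centring each array on its median, which turned the split of all calls from 2480 higher and 3247 lower in LLC to 3063 and 2421. Of the members, 6 were then higher and 12 lower in LLC, and Axin2, Sfrp1 and Sfrp4 no longer passed. Leaving out the replicate block reduced the member calls from 20 to 9. Those 9 were Dkk3, Wnt10a, Fzd6, Fzd5, Fzd2, Wnt3a, Fzd3, Lef1 and Fzd8, and all 9 passed under each of the other alternatives in which they were tested. Among them only Wnt10a and Fzd5 passed the filter through both lines. The others passed it through colon26 arrays alone, which favoured this direction. Most alternatives kept that filter, so these passes are no independent support. Fzd4 and Wnt2 were lost only without the block. Between the low groups Wnt7a and Wnt7b did not pass (limma adjusted p = 0.092 and 0.093). With the mean of all probe sets Wnt7b, Fzd7 and Sfrp5 did not (limma adjusted p = 0.075, 0.068 and 0.09). Axin2 did not pass between the high groups (limma adjusted p = 0.078), nor Wnt7b with trended robust moderation (limma adjusted p = 0.17).

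**Figure D2:**
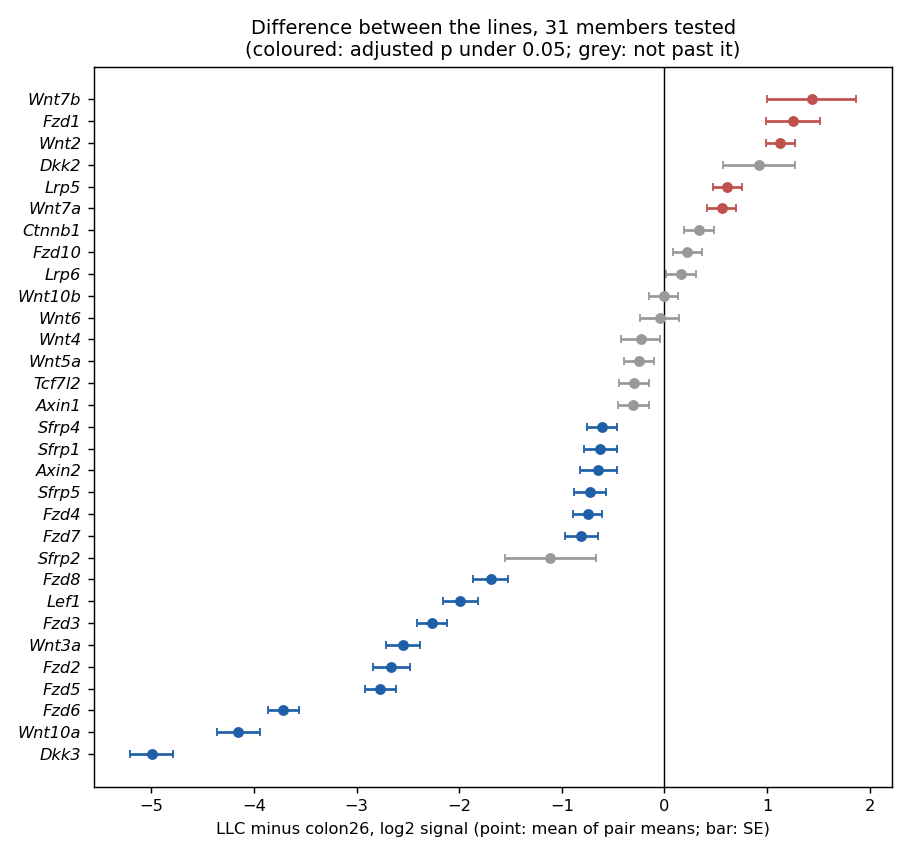
LLC minus colon26 in log2 signal (x axis) for the 31 members tested; points are the fitted differences of pair means, bars their SE, and colour marks adjusted p under 0.05 (blue higher in colon26, red higher in LLC). Dkk3, Wnt10a and Fzd6 differ by more than 3.5, and the 5 members higher in LLC differ by less than 1.5.

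The promoter windows below show the sequence just before the start sites of 3 members that differed between the lines and were present in the RefSeq promoter table (GRCm38.p6). Member windows on 1 chromosome were left out, though the windows of the whole table kept it. On the other chromosomes windows were found for 30 of the 45 members, 38 windows in all. Each covers 250 bases before a start site, 5′ to 3′ on the gene's strand. Capitals mark the TCF/LEF core (CTTTGAA and CTTTGAT as well as CTTTGTA and CTTTGTT) or a TATAAA motif on either strand; a TATAAA can share its first bases with the end of a CTTTGTA.
Fzd5, chr1:64737751-64738000, minus strand: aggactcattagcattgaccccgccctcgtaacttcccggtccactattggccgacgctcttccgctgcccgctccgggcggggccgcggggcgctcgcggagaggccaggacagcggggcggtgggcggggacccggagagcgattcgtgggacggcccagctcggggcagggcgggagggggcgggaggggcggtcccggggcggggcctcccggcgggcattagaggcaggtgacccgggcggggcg
Fzd7, chr1:59481897-59482146, plus strand: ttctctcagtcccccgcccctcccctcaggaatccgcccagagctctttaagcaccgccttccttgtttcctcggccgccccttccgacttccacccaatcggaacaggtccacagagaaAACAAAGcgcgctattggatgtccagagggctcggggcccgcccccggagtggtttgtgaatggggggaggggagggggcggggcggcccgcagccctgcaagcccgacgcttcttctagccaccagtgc
Wnt3a, chr11:59290752-59291001, minus strand: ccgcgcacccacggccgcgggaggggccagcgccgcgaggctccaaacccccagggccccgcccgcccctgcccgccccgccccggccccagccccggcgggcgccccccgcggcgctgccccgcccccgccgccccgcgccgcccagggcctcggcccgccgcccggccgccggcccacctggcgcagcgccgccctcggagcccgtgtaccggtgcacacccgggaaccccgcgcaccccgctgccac
The Wnt3a window was 87.6% and the Fzd5 window 76.4% G and C, and neither held a match to either motif. The Fzd7 window, at 65.2%, held 1 TCF/LEF core that began 130 bases before the start. Over the member windows the median G and C content was 67.4%, against 52.4% in the 32851 windows of the table. A TCF/LEF core was present in 6 of 38 member windows (15.8%) and in 14.8% of all windows. The share among members was thus near that of all windows.

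The sort comparison asked what distinguished EGFP-high from EGFP-low cells within LLC. Tcf7l2, Dkk2 and Fzd1 fell in LLC high cells, and 0 of 31 members rose (limma). Among all genes 6.04% fell and 4.98% rose in this comparison, and 3 of 31 members that passed (9.68%) compare with 11.0% of all genes. At an unadjusted p under 0.05 in either direction were 10 of 31 members and 3063 of 12177 genes (limma). Tcf7l2, the main DNA-binding partner of beta-catenin in the gut, gave 6.91 and 6.88 in LLC low and 5.68 and 5.48 in LLC high cells. The groups did not overlap, and the change was −1.31 (SE 0.19, limma adjusted p = 0.0019), which is 2.49-fold. All 4 of its probe sets were lower in LLC high cells, from −1.83 to −0.51. Dkk2, an antagonist acting through Lrp6, gave 11.91 and 12.45 in low and 10.88 and 11.24 in high cells, a change of −1.12 (SE 0.19, limma adjusted p = 0.0039). Fzd1 gave 6.40 and 7.26 in low and 5.64 and 5.71 in high cells, a change of −1.16 (SE 0.27, limma adjusted p = 0.022); its second probe set, with a mean of 3.85, gave −0.10. After quantile normalization the Fzd1 change was −1.07 (limma adjusted p = 0.10).

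These 3 calls rested on both LLC pairs. Without pair 1 the adjusted p of Tcf7l2, Dkk2 and Fzd1 was 0.059, 0.095 and 0.082 in limma, and without pair 2 it was 0.15, 0.24 and 0.66. With a block shared by the lines Dkk2 and Fzd1 did not pass (limma adjusted p = 0.14 and 0.11) and Tcf7l2 did (0.007), and without a filter Fzd1 did not (0.052). Without the replicate block 0 members and 0 genes passed in LLC, with 2 members and 794 genes at an unadjusted p under 0.05 in limma. Among the members lower in both LLC pairs but not past the threshold were Sfrp2 (−1.35, SE 0.60, limma adjusted p = 0.19), Wnt5a (−0.58, SE 0.25, limma adjusted p = 0.18) and Lrp6 (−0.44, SE 0.17, limma adjusted p = 0.15). Of the members tested Wnt7b had the greatest positive value, 0.63 (SE 0.22, limma adjusted p = 0.094), from 0.23 in pair 1 and 1.04 in pair 2.

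The promoter windows of Dkk2 and of the 2 listed starts of Tcf7l2 are given because these genes carried the sort result.
Dkk2, chr3:132085042-132085291, plus strand: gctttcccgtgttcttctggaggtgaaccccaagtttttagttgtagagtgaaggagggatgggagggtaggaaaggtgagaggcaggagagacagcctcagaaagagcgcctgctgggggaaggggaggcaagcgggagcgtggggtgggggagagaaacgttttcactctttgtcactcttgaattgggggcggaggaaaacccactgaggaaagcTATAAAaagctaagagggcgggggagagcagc
Tcf7l2 upstream start, chr19:55741560-55741809, plus strand: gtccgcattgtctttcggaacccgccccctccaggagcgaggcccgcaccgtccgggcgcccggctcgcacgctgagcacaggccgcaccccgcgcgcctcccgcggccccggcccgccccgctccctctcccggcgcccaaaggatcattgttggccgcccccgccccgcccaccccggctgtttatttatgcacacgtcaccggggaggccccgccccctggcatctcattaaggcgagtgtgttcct
Tcf7l2 downstream start, chr19:55895071-55895320, plus strand: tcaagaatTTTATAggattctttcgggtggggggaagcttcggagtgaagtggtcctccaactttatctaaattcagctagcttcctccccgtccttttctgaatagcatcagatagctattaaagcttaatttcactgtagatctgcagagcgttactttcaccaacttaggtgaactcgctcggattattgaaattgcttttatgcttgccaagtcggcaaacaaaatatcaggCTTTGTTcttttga
The Dkk2 window held a TATAAA beginning 32 bases before the start, a motif found in 12.4% of all windows. The upstream Tcf7l2 window, 72.8% G and C, held neither motif. The downstream one, 40.8% G and C, held a TCF/LEF core 14 bases and a TATAAA 242 bases before the start. The probe sets do not tell which start was used.

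In colon26 no member passed the adjusted test of high against low cells. At an unadjusted p under 0.05 in limma were 5 of 31 members and 2005 of 12177 genes. Called after adjustment were 0 of 31 members, against 3.77% of all genes (2.18% rose and 1.58% fell). That split of all genes, 266 higher and 193 lower, became 43 and 111 after quantile normalization. The values farthest from 0 were those of Sfrp2, Fzd5 and Sfrp4. Sfrp2, a Wnt-binding antagonist made by fibroblasts, gave 8.54 and 4.70 in low and 4.36 and 4.07 in high cells, with −2.41 (SE 0.60, limma adjusted p = 0.058). The low array numbered 1 alone was far above background. Fzd5 gave 9.78 and 9.04 in low and 10.32 and 10.03 in high cells, with 0.76 (SE 0.20, limma adjusted p = 0.073). Sfrp4 gave 7.28 and 7.62 in low and 6.79 and 6.67 in high cells, with −0.72 (SE 0.19, limma adjusted p = 0.073). After median centring 1 member rose and 1 fell in colon26, Fzd5 (0.84, limma adjusted p = 0.019) and Sfrp2 (−2.33, limma adjusted p = 2.0e-05).

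The change of Tcf7l2 and Dkk2 with the sort differed between the lines, though not under every alternative. Tcf7l2 in colon26 was 6.57 and 6.19 in low and 6.65 and 6.73 in high cells, higher in both pairs, where LLC was lower in both. Of its 3 other probe sets, 1 was higher in colon26 high cells (0.29) and 2 were lower (−0.53 and −0.17), so the probe sets of Tcf7l2 disagreed in colon26. The LLC change minus the colon26 change was −1.62 (SE 0.27, limma adjusted p = 0.021) for Tcf7l2. For Dkk2 the colon26 values were 11.13 and 9.93 in low and 11.28 and 10.48 in high cells, and the difference of changes was −1.47 (SE 0.26, limma adjusted p = 0.029). These were 2 of 31 members, against 1.41% of all genes. Fzd5 also had opposite signs, lower in both LLC pairs and higher in both colon26 pairs, but the difference did not pass (−1.15, SE 0.28, limma adjusted p = 0.094). With a replicate block shared by the lines, whose numbers also deviated together, neither passed (limma adjusted p = 0.089 for Tcf7l2 and 0.42 for Dkk2), nor without a filter (0.053 and 0.058). With values quantile normalized, neither Tcf7l2 nor Dkk2 passed (−1.48, limma adjusted p = 0.096, and −1.31, adjusted p = 0.10). Without colon26 pair 2 they did not pass either (−1.40, limma adjusted p = 0.087, and −1.28, adjusted p = 0.10), nor without either LLC pair (adjusted p from 0.20 to 0.52). With the mean of its 4 probe sets the difference for Tcf7l2 was −1.02 (limma adjusted p = 0.092).

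**Figure D3:**
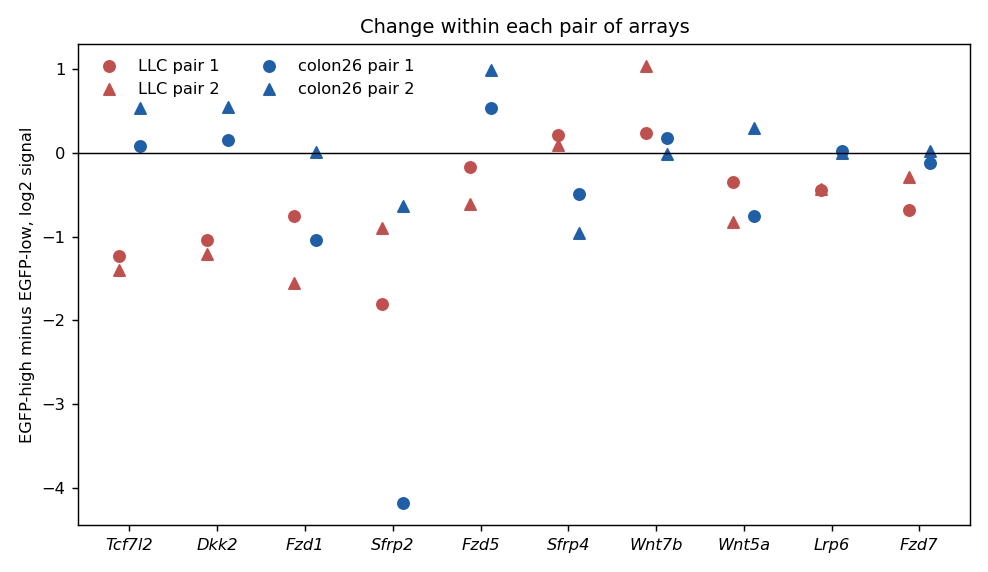
EGFP-high minus EGFP-low in log2 signal (y axis) within each pair of arrays for 10 members, by line (colour) and pair (circle 1, triangle 2). Tcf7l2 and Dkk2 lie below −1 in both LLC pairs and above 0 in both colon26 pairs; the Sfrp2 value of colon26 pair 1 is −4.18.

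As a mean of both lines 3 members passed as lower and 0 as higher (limma), against 5.57% of all genes that fell and 7.47% that rose. At an unadjusted p under 0.05 were 6 of 31 members and 3333 of 12177 genes (limma). Sfrp2 was lower in high cells in 4 of 4 pairs, by −1.80 and −0.90 in LLC and −4.18 and −0.63 in colon26, and −1.88 (SE 0.42, limma adjusted p = 0.016) as a mean. Sfrp2 exceeded 5 on 2 arrays, LLC low 1 and colon26 low 1, so it passed the filter through low cells alone, which favoured a lower value in high cells; its p is given as a description and supports no fall. It missed the threshold without the filter (limma adjusted p = 0.051), with a block shared by the lines (0.087) and with trended robust moderation (0.32). Without colon26 pair 1 the mean was −0.99 (limma adjusted p = 0.019), and without colon26 pair 2 it was −2.77 (adjusted p = 7.3e-04). The call ended without LLC pair 1 (adjusted p = 0.14) or LLC pair 2 (adjusted p = 0.079) in limma. Fzd1 fell by 0.84 on the log2 scale (SE 0.19, limma adjusted p = 0.017). It was lower in 3 of 4 pairs, and the call ended without LLC pair 2 (−0.64, limma adjusted p = 0.25) or colon26 pair 1 (−0.57, adjusted p = 0.068). Tcf7l2 passed as a mean as well (−0.50, SE 0.13, limma adjusted p = 0.034), but its changes in the lines had opposite signs. After quantile normalization the mean change of Sfrp2 and Fzd1 did not pass (limma adjusted p = 0.11 and 0.1), and with a block shared by the lines Fzd1 did not (0.095). The mean of Tcf7l2 did not pass without a filter (0.052) or after median centring (limma adjusted p = 0.052). Beta-catenin itself was lower in 4 of 4 pairs by small amounts (−0.11, SE 0.12, limma adjusted p = 0.64), and Axin1 higher in 4 of 4 (0.14, SE 0.13, limma adjusted p = 0.54), neither past the threshold. Without the replicate block 0 members and 7 genes passed in limma, with 2 members and 982 genes at an unadjusted p under 0.05.

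Markers of some other cell types moved with the sort on the same arrays. In bulk samples fewer cells of a type and less RNA per cell cannot be told apart. Of 13 fibroblast markers 10 fell in LLC high cells and 5 in colon26 high cells, and of 12 macrophage markers 10 fell in LLC and 12 in colon26. Among all genes 6.04% fell in LLC and 1.58% in colon26. In either line 0 of the tested pericyte and smooth muscle, epidermis and skeletal muscle markers passed (limma). The T and NK cell and the adipocyte markers had 0 calls in LLC and 1 fall each in colon26. The mean log2 signal of the fibroblast markers was 9.30 and 9.72 in LLC low and 7.04 and 7.34 in LLC high cells. In colon26 it was 10.23 and 9.44 in low and 8.74 and 8.92 in high cells. The array with the highest Sfrp2 value, colon26 low 1, had the highest fibroblast mean and also the highest macrophage mean. In LLC low cells the order differed. Array 2 had the higher fibroblast mean, but array 1 had the higher Sfrp2 value (5.28 against 4.67). Macrophage markers averaged 6.86 and 7.01 in LLC low and 5.50 and 5.58 in LLC high cells, whereas colon26 arrays gave 8.54 and 7.99 for low and 5.63 and 5.34 for high cells. On the LLC high arrays 5 and 3 of the 13 fibroblast markers were at or under 5, with Thy1, Fap and Aspn so on both. Of the 9 endothelial markers tested 0 fell in LLC (limma) and 4 fell in colon26, and the full list of 12 averaged 4.43 to 5.0 on the LLC and 4.67 to 5.85 on the colon26 arrays. The part of these cells in the changes of Tcf7l2, Dkk2, Fzd1 and Sfrp2 was not tested.

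**Figure D4:**
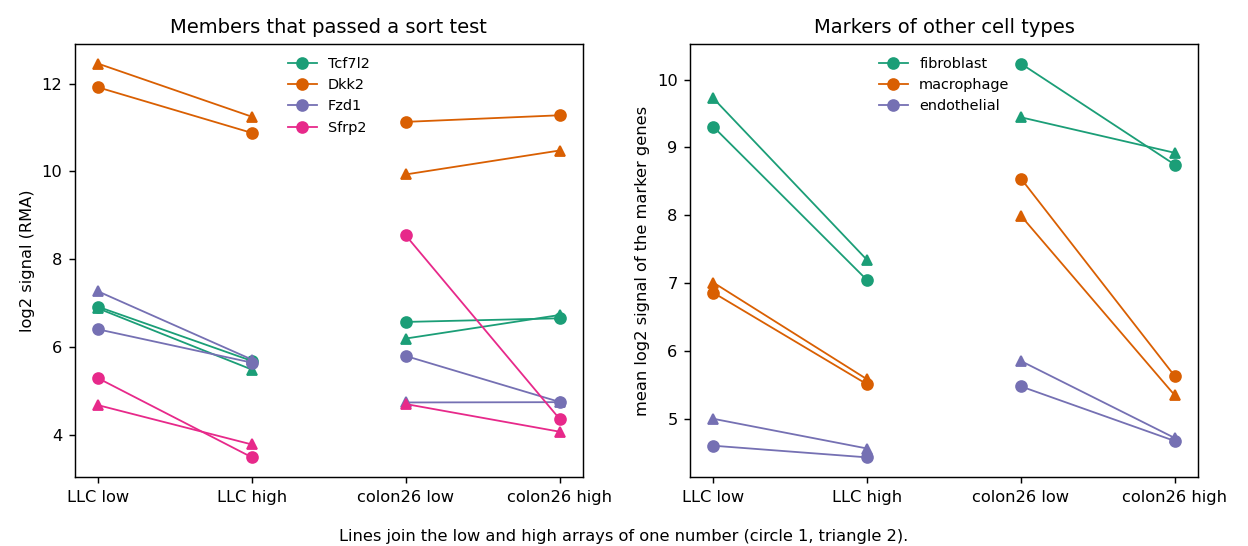
Log2 signal of the 4 members that passed a sort test (left) and mean log2 signal of the fibroblast, macrophage and endothelial markers (right) in the 4 groups (x axis); lines join low and high arrays of a number (circle 1, triangle 2). Fibroblast and macrophage means fall from low to high in every pair, Sfrp2 does too, and Dkk2 and Tcf7l2 fall in the LLC pairs only.

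Other genes of the pathway were followed in lists by role, which exclude the members and were chosen with earlier results of these data known. In LLC high cells 4 of 9 secretion and extracellular genes tested fell (list median −0.51), and 0 rose. They were Wls (−0.97), the carrier that brings Wnt proteins to the cell surface, Kremen1 (−0.75), a receptor for Dkk proteins, Cthrc1 (−1.60), a secreted protein of fibroblasts and wound matrix, and Igfbp4 (−1.06). Their limma adjusted p-values were 0.0098, 0.045, 0.0098 and 0.0046. Wls gave 10.17 and 10.86 in LLC low and 9.44 and 9.66 in LLC high cells, without overlap. Of 18 nuclear co-factors 3 fell (list median −0.26): Bcl9 (−0.98) and Bcl9l (−0.94), co-activators that bind beta-catenin, and the co-repressor Tle2 (−1.30), at limma adjusted p of 0.01, 0.016 and 0.0015. Lgr4, a receptor of R-spondins, was the 1 of 7 other receptors that fell (−1.12, SE 0.28, limma adjusted p = 0.03). Of 23 relay and destruction complex genes and 19 polarity and calcium genes 0 passed in LLC in limma (list medians −0.05 and 0.03). Among all genes 6.04% fell and 4.98% rose in LLC high cells (limma), with a median change of 0.04. In colon26 0 genes of these 5 lists passed in limma, against 3.77% of all genes. The list medians ran from −0.20 to 0.20, beside 0.08 for all genes. Over both lines Wtip (−0.55) and Daam1 (−0.61), the latter a formin of the polarity branch, also fell (limma adjusted p = 0.037 and 0.013). The changes of Tle2 and of Camk2d, a calcium-dependent kinase, differed between the lines (−1.31 and −1.35, limma adjusted p = 0.036 and 0.048).

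Of 16 known canonical targets tested, 2 passed in LLC, a share near the 11.0% of all genes: Fosl1 rose (0.66, SE 0.18, limma adjusted p = 0.041) and Ccn4, a matricellular protein, fell (−1.0, SE 0.22, limma adjusted p = 0.017), with a list median of 0.10. As a mean of the lines Ccnd1, the G1 cyclin, rose by 0.46 (limma adjusted p = 0.038) and Fosl1 by 0.51 (adjusted p = 0.026). Ccn4 fell in that comparison (−0.59, limma adjusted p = 0.034). Axin2 did not pass in either line, at 0.21 (SE 0.18, limma adjusted p = 0.53) in LLC and −0.01 (SE 0.18, limma adjusted p = 0.99) in colon26. Between the lines the targets went both ways, 4 of 16 higher in LLC and 4 in colon26, beside 20.4% and 26.7% of all genes. That is near the general share. Apcdd1, a membrane inhibitor of Wnt signalling, was higher in LLC (2.21, SE 0.14, limma adjusted p = 4.5e-04), as was Myc (1.43, limma adjusted p = 0.002), whereas Bmp4 (−4.66) and Ccnd1 (−1.48) were higher in colon26 (limma adjusted p = 6.2e-04 and 0.0017).

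Several non-member pathway genes also separated the lines. Of 18 nuclear co-factors 5 were higher in LLC and 0 in colon26 (limma, list median 0.28), beside 20.4% and 26.7% of all genes. The repressive factor Tcf7l1 gave 9.76 and 9.35 on the LLC low arrays, 9.60 and 9.18 on the LLC high, 7.63 and 7.66 on the colon26 low and 7.66 and 7.30 on the colon26 high arrays, without overlap and opposite in direction to Lef1 (1.91, SE 0.15, limma adjusted p = 8.4e-04). The co-repressor Tle4 differed by 2.36 (SE 0.15, limma adjusted p = 4.3e-04). Of the 9 extracellular genes 3 were higher in LLC and 5 in colon26, a small list beside the same 20.4% and 26.7% of all genes. Frzb, the Sfrp family member without a number, was higher in LLC by 1.86 (SE 0.24, limma adjusted p = 0.004), contrary to the direction of Sfrp1, Sfrp4 and Sfrp5. In the polarity branch Prickle1 and Prickle2, at −2.29 and −2.51 (limma adjusted p = 0.0012 and 6.2e-04), were higher in colon26, as was Fzd6, and Daam1 was higher in LLC (2.34, limma adjusted p = 3.7e-04). Of the 2 genes of Wnt export, Porcn, which attaches the lipid to Wnt proteins, was higher in colon26 (−0.69, SE 0.15, limma adjusted p = 0.017), with LLC values of 4.62 to 4.75, and Wls did not pass (−0.33, SE 0.14, limma adjusted p = 0.11).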

How the data were processed

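Total RNA (6 ug) of sorted tumour cells was labelled and hybridised to 1-colour Affymetrix arrays, per the labels' protocols. The authors deposited RMA summaries of 45101 probe sets for the 8 arrays on a log2 scale, per the submitters' processing notes; the sources used here give no RMA version or options. For colon26 samples the description field says LLC; their titles and cell line fields, which say colon26, were followed. Probe sets with 1 gene symbol (34945; 932 had several, 9160 none, and 64 were controls) were joined to genes by the platform annotation, with symbols updated through RefSeq of GRCm38.p6. The probe set with the highest mean represented a gene, and the 12177 genes above log2 5 on at least 2 arrays were tested. The number of arrays limits the precision.

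Fits used limma 3.58.1 (R 4.3.3), with Benjamini-Hochberg adjustment over all genes of a contrast at 0.05. High minus low used group means and, within a line, a block for the replicate number (2 degrees of freedom left, 8.25 from the prior). Deviations from group means of low and high arrays with the same number correlated at 0.89 in LLC and 0.84 in colon26, and the numbers of the 2 lines at 0.74 to 0.84, so the numbers were taken to pair the arrays. LLC minus colon26 used the 4 pair means with the number as a block (1 residual degree of freedom). The prior of this fit was fitted by maximum likelihood (4.15 degrees of freedom), since limma's moment estimate was taken to be unstable here. Fits without a pair used the same step. With the moment estimate (6.57 degrees of freedom) limma called 6 members higher and 16 lower in LLC. Alternatives were no block, a block shared by the lines, other filters, quantile normalization, median centring, trended robust moderation, the mean of all probe sets, the lines compared between the high or the low groups, and leaving out each pair. The comparisons between the high or the low groups took their spread and a shared number block from all 8 arrays. They treated low and high arrays of a number as independent, unlike the main line fit. The 6 promoter windows were chosen after the values were seen. The members and gene lists were chosen with earlier results of these data known; named genes are all members, and list genes past the threshold. Wls and markers at or under 5 were named after their values were seen. Plots came from matplotlib 3.10.9 (Python 3.11.15).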

Additional observations from a re-analysis of the deposited data

Results flagged for a closer look

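The high minus low changes of Tcf7l2 and Dkk2 differed between the lines. The LLC change minus the colon26 change was −1.62 for Tcf7l2 and −1.47 for Dkk2 (limma adjusted p = 0.021 and 0.029), with both LLC pairs lower and both colon26 pairs higher in EGFP-high cells. With a block shared by the lines neither passed (0.089 and 0.42, limma adjusted p). Fibroblast markers moved with the same contrast: 5 of 13 fell more in LLC than in colon26, and 0 fell more in colon26, while 6 of 12 macrophage markers fell more in colon26 (limma). Their part in the result was not tested.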

How the results depend on the processing

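Without the replicate block limma called 0 genes in LLC, 3 in colon26, 7 over both lines, 0 for the difference of changes and 812 between the lines, against 1342, 459, 1588, 172 and 5727 with it; in LLC and for the difference 794 and 270 genes had an unadjusted p under 0.05. Members called were then 0, 0, 0, 0 and 9, against 3, 0, 3, 2 and 20. With a block shared by the lines the sort counts were 802, 204, 1052 and 12 genes and 1, 0, 1 and 0 members. In colon26, quantile normalization left 154 genes (43 higher, 111 lower, against 266 and 193) and median centring 796 (553 higher), with 2 members; trended robust moderation gave 1 member. For the difference of changes the genes numbered 56 without a filter, 4 after quantile normalization, 381 after median centring, 320 with trended robust moderation and 97 with the mean of all probe sets; the members numbered 0, 0, 3, 3 and 1. Without a filter 1 member passed over both lines, and 9331 of 18193 genes differed between the lines. The Wnt7a line difference turned to −0.13 with the mean of its probe sets. Leaving out a pair gave 58 to 1928 genes and 0 to 4 members in LLC, 188 to 1295 and 0 to 4 in colon26, 436 to 2282 and 0 to 4 over both lines, and 17 to 297 and 0 to 2 for the difference; between the lines it leaves no residual degree of freedom. The causes were not tested. With a filter on the mean over all arrays 18 of 26 members differed between the lines, beside 2323 genes higher and 2730 lower in LLC of 11145. Of the 8 sort calls 0 held under every alternative, and 9 of 20 line calls did, leaving a pair out aside. Of those 9, all but Wnt10a and Fzd5 passed the filter through colon26 arrays alone, which favoured that direction. Background limits differences that end under log2 5, and the array number limits all others.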
